A study of Homo sapiens with 6 samples.

Results

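The SLC25 solute carriers were examined here in NAT10 RNA immunoprecipitates and in ac4C peak lists of human colorectal cancer (CRC) cells. Members were the protein-coding genes of the RIP table whose symbol is SLC25A followed by a number, which gave 48 genes of 58302. The study profiled SW480 and DLD-1, established lines from human colorectal adenocarcinomas, both untreated and of wild-type genotype by their labels. The study's text describes both lines as mutant for p53, so that label does not cover every gene. In each line there was 1 library of Input RNA, 1 of RNA pulled down with the acetyltransferase NAT10 (RIP-seq) and 1 of fragmented RNA pulled down with an antibody against N4-acetylcytidine (acRIP-seq), 6 libraries in all. The groups were named from the sample titles. With no replicates, each difference below compares libraries, no p-value was computed, and the errors given for ratios are counting errors only.

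SLC25 proteins form the mitochondrial carrier family. Most sit in the inner mitochondrial membrane and exchange nucleotides, phosphate, amino acids, carboxylates, cofactors or metals between the cytosol and the matrix, and a few act on peroxisomes or the outer membrane. The genes are nuclear, so their mRNAs are translated in the cytosol and the carriers are then imported. NAT10 is the enzyme that writes ac4C on RNA, and the question set by the design was which transcripts it holds and which carry the mark.

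The sequenced depth and the labels bear on every value. Levels are FPKM, fragments counted per kilobase of a transcript and per size of the library. Whole reads solved from them came to at least 28097410 and 23733279 for RIP with the SW480 and DLD-1 labels, and to 13683039 and 12623619 for Input. Over protein-coding genes, RIP libraries resembled the Input of the other label more than their own. Across 10350 protein-coding genes with an Input of at least 1 FPKM in both lines, log2(FPKM + 1) of RIP labelled SW480 correlated at a Pearson r of 0.893 with the Input labelled DLD-1 and at 0.802 with that labelled SW480. For RIP labelled DLD-1, r was 0.899 with the Input labelled SW480 and 0.775 with its own. Over the 36 SLC25 members among these genes, the direction differed by library. RIP labelled SW480 gave 0.898 with its own Input and 0.873 with the other, and RIP labelled DLD-1 gave 0.843 and 0.922. In 23 and 21 of the 36 members, RIP lay nearer the Input of the other label. KRT20, a keratin of intestinal epithelium, was at 29.2 FPKM in the Input labelled SW480 and 23.9 in RIP labelled DLD-1, but at 0.0426 FPKM in the Input labelled DLD-1 and 0 in RIP labelled SW480. The epithelial markers EPCAM, CDH1, KRT8 and KRT18 were above 50 FPKM in all 4 libraries. Of the same list, CDX2 ran from 4.31 to 33.4 FPKM, with the higher values in the Input labelled SW480 and in RIP labelled DLD-1, and VIL1 was near absent, at 0.261 to 1.24 FPKM. By contrast, each of 9 fibroblast, leukocyte and endothelial markers stayed under 1 FPKM. Groups were kept as labelled, and member ratios are given over the Input of the same label and of the other label.

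Most members were detected, in the immunoprecipitates and in Input. The share of all protein-coding genes detected in both RIP libraries is not given here, so this is not shown to be particular to the family. Of the 48 genes, 43 were above 0 in both RIP libraries and 42 were above 0 in all 4 libraries, while SLC25A31, the testis-type ADP/ATP carrier, and SLC25A21, the oxodicarboxylate carrier, were at 0 throughout. SLC25A2 appeared only in the Input labelled DLD-1 (0.941 FPKM), SLC25A47 only in RIP labelled SW480 (0.0583 FPKM) and SLC25A52 only in RIP labelled DLD-1 (0.0903 FPKM). An Input of at least 1 FPKM in both lines was reached by 36 members. The 12 others were those 5 genes and SLC25A10, SLC25A18, SLC25A34, SLC25A41, SLC25A45, SLC25A48 and SLC25A53, whose highest value in any of the 4 libraries was 2.45 FPKM, for SLC25A10 in RIP labelled DLD-1.

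FPKM is scaled by transcript length, so levels can be ordered between members. In bulk RNA, a level in fewer cells and less RNA per cell cannot be told apart. By mean Input, the most abundant were SLC25A6 (215 FPKM), the citrate carrier SLC25A1 (61.2), SLC25A39 (55.8), SLC25A5 (51.4) and SLC25A23 (47.0). The summed level of all 48 members was 811 and 734 FPKM in the Inputs labelled SW480 and DLD-1, and 974 and 1264 in the RIP libraries. The ADP/ATP carriers, 4 genes, held 40.5% and 29.9% of the sums in Input and 40.5% and 51.0% in RIP. SLC25A5 alone held 7.66% and 5.56% in Input but 19.9% and 23.4% in RIP.

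**Figure D1:**
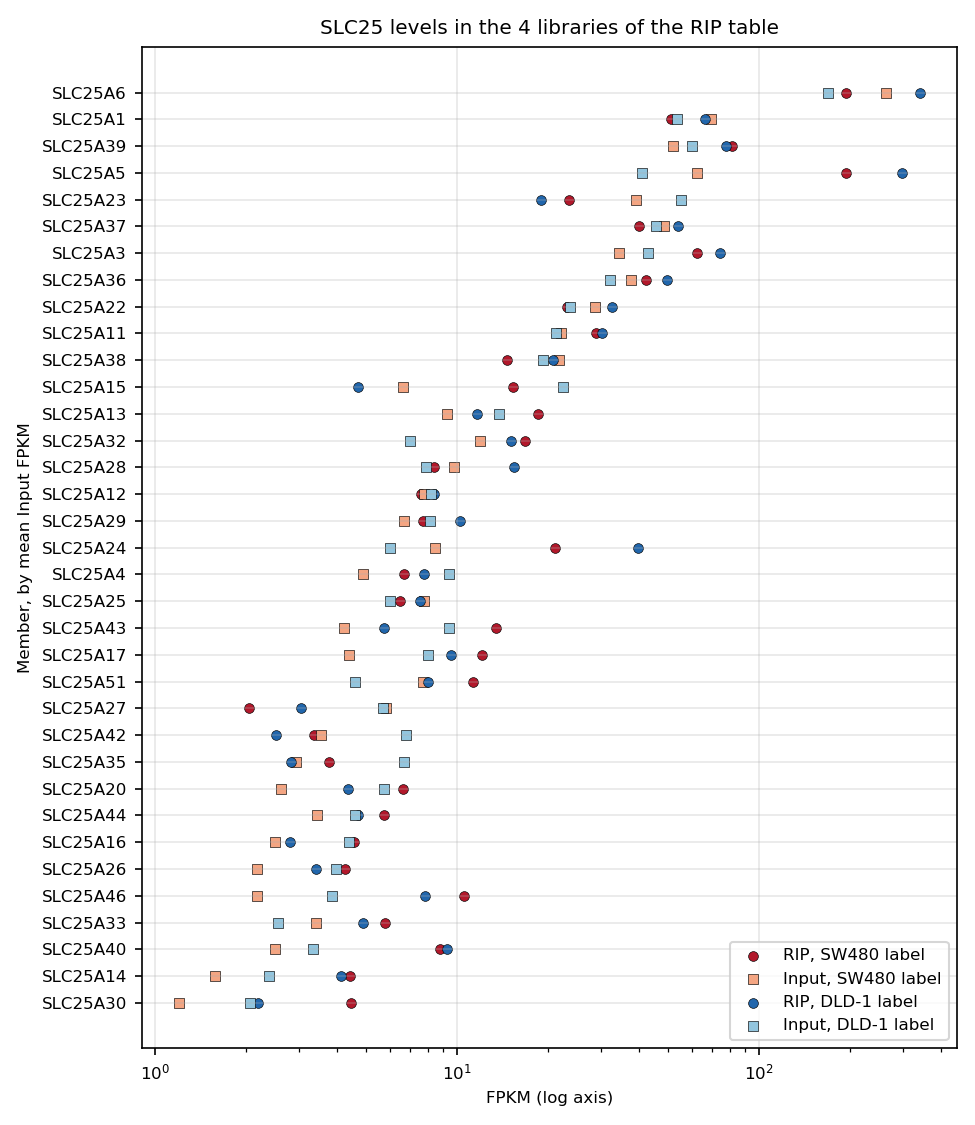
FPKM (log axis) of 35 of the 36 members with an Input of at least 1 FPKM in both lines, ordered by mean Input, with circles for RIP and squares for Input, coloured by label. Both RIP points of SLC25A5 (194 and 296 FPKM) and of SLC25A24 (21.1 and 39.7) lie to the right of both Input points, while both RIP points of SLC25A23 (23.5 and 18.9) lie to the left.

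The ADP/ATP carriers, which pass ATP out of the matrix in return for ADP, split among themselves. SLC25A5, the carrier of proliferating cells (ENSG00000005022, chrX:119468444-119471396, GRCh38), was at 194 FPKM in RIP and 62.1 in Input labelled SW480, and at 296 in RIP and 40.8 in Input labelled DLD-1. Both RIP values lay above both Input values. On the scale used here, log2 of (RIP + 1) over (Input + 1), SLC25A5 stood at 1.63 ± 0.045 (counting SE) in SW480 labels and 2.83 ± 0.055 in DLD-1 labels. Over the other label's Input the ratios were 2.22 and 2.24.

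SLC25A5 nevertheless depended on which Input table served as the baseline. The acRIP table holds a further Input column for each line, and after scaling to the same protein-coding median SLC25A5 was at 202 FPKM there under the SW480 label and 97.4 under the DLD-1 label. Against these columns its log2 ratio was -0.060 in SW480 labels and 1.60 in DLD-1 labels, and 0.98 and 0.55 over the other label. Under the SW480 label the deposited Input columns thus differed from each other by as much as RIP differed from the lower of them. The SLC25A5P3 pseudogene, 1 of 40 SLC25 pseudogenes in the table, was at 3.56 FPKM in Input labelled SW480 and 0 in both RIP libraries, and it was the highest value of any of them. SLC25A5-AS1, antisense to SLC25A5 by its symbol and listed as a processed transcript, was at 0.606 and 0.519 FPKM in RIP and 1.56 and 1.65 in Input. Whether counting used strand is not stated. How reads shared with such copies were counted is not given in the sources used here.

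SLC25A6, the other ubiquitous ADP/ATP carrier (ENSG00000169100, chrX:1386152-1392113, GRCh38, in the pseudoautosomal region that X and Y share), was the most abundant member. It was at 194 FPKM in RIP and 262 in Input labelled SW480, and at 340 in RIP and 169 in Input labelled DLD-1. The ratios were -0.43 ± 0.021 and 1.004 ± 0.024 by label, and 0.20 and 0.38 over the other label. The libraries therefore did not separate by RIP and Input for this gene. SLC25A4, the carrier of heart and muscle, was low (RIP 6.66 and 7.78 FPKM, Input 4.90 and 9.39, SW480 label first), with ratios of 0.38 and -0.24 by label and -0.44 and 0.57 over the other label.

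SLC25A3, which brings in the phosphate that ATP synthase uses, was at 62.2 and 74.2 FPKM in RIP against 34.4 and 42.9 in Input. Both RIP values exceeded both Inputs, by log2 ratios of 0.84 ± 0.029 and 0.78 ± 0.027 within labels and of 0.53 and 1.09 across them. With the acRIP-table Inputs the range was 1.0 to 1.26. It lay above Input in each of the 8 pairings of a RIP library with an Input column (2 RIP libraries against 4 Input columns). These pairings are not independent. The labels give 1 Input sample per line, and whether both Input columns of a line are separate libraries is not stated.

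**Figure D2:**
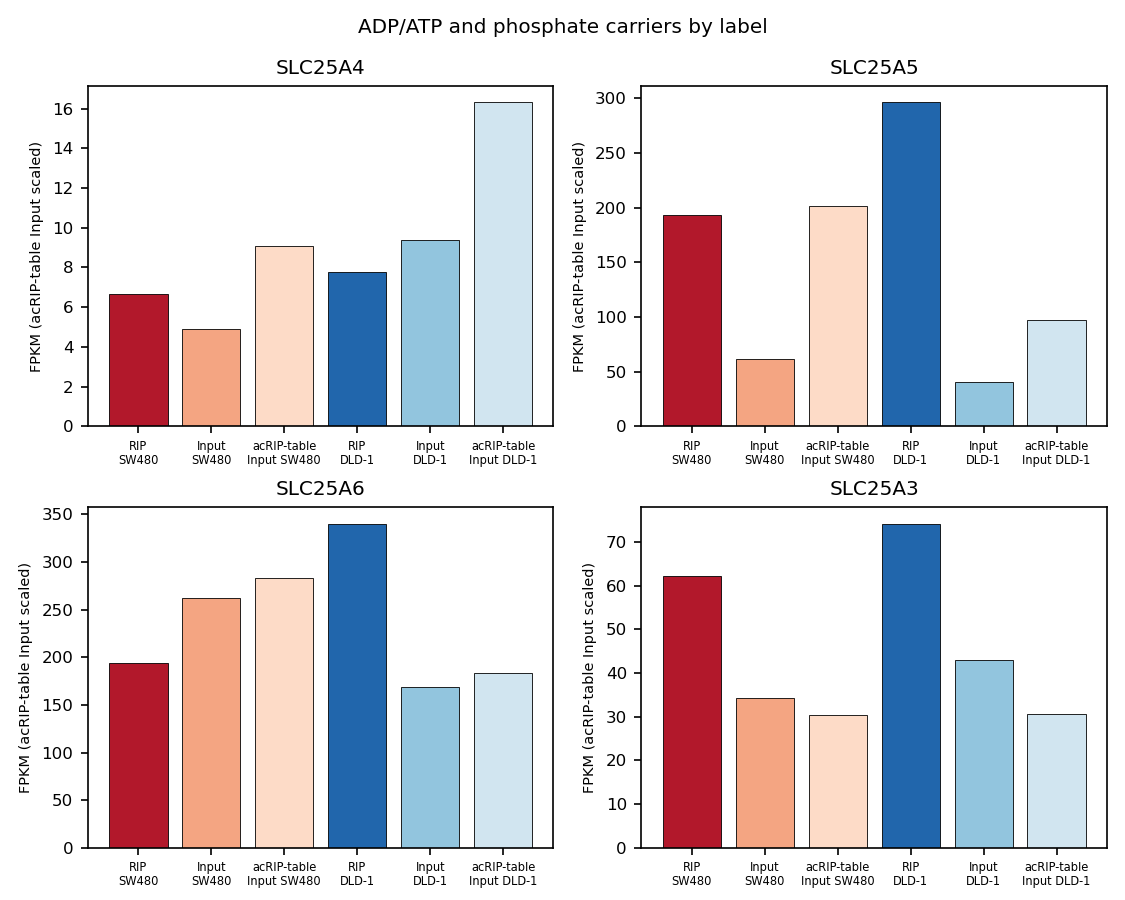
FPKM of 4 members in the RIP library, the Input of the RIP table and the scaled Input of the acRIP table, for each label; bars start at 0 and stand for 1 library each. For SLC25A5 the acRIP-table Input labelled SW480 (202 FPKM) reaches the RIP value (194), whereas for SLC25A3 both RIP bars exceed all Input bars.

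Across the 36 members that passed the Input filter, the median log2 ratio was 0.48 in SW480 labels and 0.29 in DLD-1 labels, against 0.18 and 0.07 for all 10350 protein-coding genes. Over the other label the medians were 0.23 and 0.37, against 0.11 and 0.09. Among the 11 members with an Input of at least 10 FPKM in both lines, the medians by label were -0.26 and 0.44. At least 2-fold above Input were 10 members in SW480 labels, where 17.4% of protein-coding genes were, and 5 in DLD-1 labels, where 16.7% were. At least 2-fold below Input were 1 member in SW480 labels (background 9.17%) and 4 in DLD-1 labels (12.8%). Over the other label, 6 members were 2-fold above with RIP labelled SW480 (background 10.1%) and 5 with RIP labelled DLD-1 (10%), while 2 (3.93%) and 1 (4.51%) were 2-fold below.

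Agreement between lines depended on the pairing. Of the 36, 17 members were above Input and 3 below it in both lines, and 16 had opposite signs, a share of 44.4% where all protein-coding genes gave 47.6%. Over the Input of the other label, 7 members had opposite signs (19.4%, background 19%). Across the 36 genes, which share libraries and are not replicates, the ratios of both lines correlated at a Pearson r of 0.30 (Spearman 0.19) by label and 0.82 (0.67) over the other label. In 27 of the 36 members (75.0%) the Input and RIP differences between labels had opposite signs, as in 78.3% of protein-coding genes. Whether samples were exchanged was not tested.

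**Figure D3:**
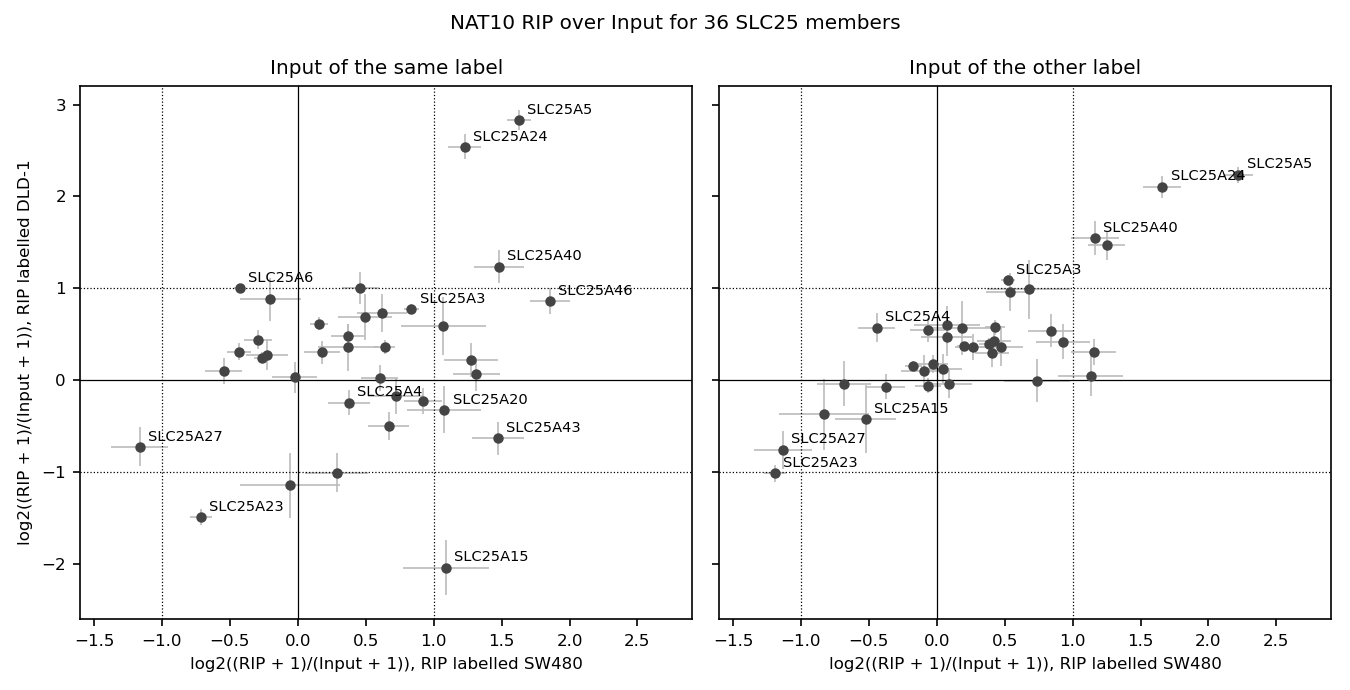
Log2 of (RIP + 1) over (Input + 1) for 36 members, RIP labelled SW480 on the x axis and RIP labelled DLD-1 on the y axis, over the Input of the same label (left) and of the other label (right); bars are 95% counting intervals and dotted lines mark 2-fold. SLC25A5, SLC25A24 and SLC25A40 lie beyond 2-fold on both axes of both panels, while SLC25A15 moves from 1.09 and -2.04 on the left to -0.52 and -0.42 on the right.

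In both lines by label, 3 members were at least 2-fold above Input, SLC25A5, SLC25A24 and SLC25A40 (background 3.86%), and these genes were also 2-fold above in all 4 pairings within the RIP table (3.54%). SLC25A24, an ATP-Mg/phosphate carrier regulated by calcium (chr1:108134043-108200343), was at 21.1 and 39.7 FPKM in RIP and 8.46 and 6.0 in Input. Its ratios were 1.23 ± 0.062 and 2.54 ± 0.070 by label and 1.66 and 2.11 over the other label. With the acRIP-table Inputs they ran from 0.50 to 1.98, so that 1 of the 8 pairings fell short of 2-fold.

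SLC25A40 was 2-fold above Input in all 8 pairings, the only member with that pattern (background 1.49%). It encodes a carrier tied to mitochondrial glutathione import (ENSG00000075303, chr7:87833568-87876360). RIP was at 8.76 and 9.25 FPKM and Input at 2.5 and 3.35, so neither RIP library overlapped the Inputs. The ratios were 1.48 ± 0.094 and 1.24 ± 0.092 by label, and over all pairings they ran from 1.10 to 1.55. The smallest whole-read numbers behind these values were 1050, 148, 943 and 183 in RIP and Input labelled SW480 and RIP and Input labelled DLD-1. Its paralog SLC25A39, the glutathione importer itself, was at 81.1 and 77.4 FPKM in RIP against 51.7 and 60.0 in Input, and its ratios ran from 0.36 to 1.30 without falling below 0.

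SLC25A46, an outer-membrane member linked to mitochondrial dynamics, came next. It was at 10.5 and 7.81 FPKM in RIP and 2.18 and 3.85 in Input. Its ratios were 1.86 and 0.86 by label and 1.25 and 1.47 over the other label, 2-fold in 3 of those 4 pairings. Above Input in all 8 pairings, without regard to size, were 11 members (background 20.3%), namely SLC25A3, SLC25A11, SLC25A14, SLC25A17, SLC25A24, SLC25A33, SLC25A36, SLC25A39, SLC25A40, SLC25A46 and SLC25A51. In the 4 pairings of the RIP table there were 15 (30%).

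The promoters of the 3 members at least 2-fold above Input in both lines are shown because these transcripts stood above Input together. Each is the 250 bases before the RefSeq start (GRCh38), 5′ to 3′ on the gene's strand, with capitals marking matches on either strand to GGGCGG, the SP1 box, or CCGGAAG, the core bound by GABP and other ETS factors. SLC25A5 lies at chrX:119468194-119468443 (plus strand), SLC25A40 at chr7:87876361-87876610 (minus) and SLC25A24 at chr1:108200344-108200593 (minus, the upstream of its 2 starts).
SLC25A5: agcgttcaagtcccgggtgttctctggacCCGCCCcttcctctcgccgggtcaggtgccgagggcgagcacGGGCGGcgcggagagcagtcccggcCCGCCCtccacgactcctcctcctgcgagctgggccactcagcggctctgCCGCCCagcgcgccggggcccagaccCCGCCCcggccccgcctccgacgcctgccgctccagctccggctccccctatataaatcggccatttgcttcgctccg
SLC25A40: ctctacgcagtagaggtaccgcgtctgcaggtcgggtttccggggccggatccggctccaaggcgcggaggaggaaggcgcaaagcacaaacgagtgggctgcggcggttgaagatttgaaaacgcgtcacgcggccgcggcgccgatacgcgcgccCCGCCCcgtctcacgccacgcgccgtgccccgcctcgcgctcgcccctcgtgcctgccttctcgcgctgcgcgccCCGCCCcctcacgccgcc
SLC25A24: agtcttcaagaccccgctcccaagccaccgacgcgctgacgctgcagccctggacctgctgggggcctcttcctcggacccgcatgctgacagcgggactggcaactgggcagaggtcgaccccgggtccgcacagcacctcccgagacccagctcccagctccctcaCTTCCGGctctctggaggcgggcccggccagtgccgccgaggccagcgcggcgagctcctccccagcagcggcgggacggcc
The SLC25A5 stretch held 5 SP1 boxes and SLC25A40 held 2, while SLC25A24 held 1 ETS core. Among 50 RefSeq windows of 300 bases for 40 members, the ETS core was in 22% and the SP1 box in 66.0%, against 10.3% and 45.0% of all 34961 windows. The NRF1 core GCGCANGCG was in 10.0% against 7.54%, and the YY1 core AAGATGG in 4.0% against 5.84%. Windows were counted rather than genes, and the comparison was not limited to expressed genes. A match is a description of letters, not of a bound site, and no link between promoters and RIP ratios was tested.

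Other members were at least 2-fold above Input in 1 line by label. SLC25A15, the ornithine carrier of the urea cycle, had opposite calls by label. It was at 15.3 FPKM in RIP and 6.64 in Input labelled SW480 but at 4.71 in RIP and 22.4 in Input labelled DLD-1, giving ratios of 1.09 ± 0.16 and -2.04 ± 0.15. Over the other label both were below 0, at -0.52 and -0.42. SLC25A43, whose substrate is not assigned, gave 1.47 and -0.63 by label and 0.47 and 0.36 over the other label.

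SLC25A20, which carries acylcarnitines for fatty acid oxidation, gave 1.08 and -0.32 by label and 0.19 and 0.57 over the other label. SLC25A17, a peroxisomal cofactor carrier, stayed above 0 within the RIP table, with 1.28 and 0.22 by label and 0.54 and 0.96 over the other label. So did the uncoupling-related SLC25A14 (1.07 and 0.59, then 0.68 and 0.99) and SLC25A30 (1.32 and 0.07, then 0.84 and 0.54), but with the acRIP-table Input SLC25A30 was at -0.62 in DLD-1 labels. SLC25A32, the folate carrier, passed 2-fold in DLD-1 labels (1.01, against 0.46 in SW480 labels).

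SLC25A23 and SLC25A27 were the members below Input in all 8 pairings (background 11%), and with SLC25A42 they were below it in all 4 pairings of the RIP table (19.4%). No member was 2-fold below in both lines by label (background 1.26%). SLC25A23, a further ATP-Mg/phosphate carrier and thus of the same kind as SLC25A24, was at 23.5 and 18.9 FPKM in RIP and 39.1 and 54.9 in Input. Its ratios were -0.71 ± 0.043 and -1.49 ± 0.044 by label and -1.19 and -1.01 over the other label. SLC25A25, of the same kind too, gave -0.23 and 0.28. SLC25A27, an uncoupling-related carrier of neural tissue, was at 2.05 and 3.05 FPKM in RIP and 5.84 and 5.70 in Input, with ratios of -1.17 ± 0.11 and -0.72 ± 0.11. SLC25A42, a coenzyme A carrier, gave -0.06 ± 0.19 and -1.14 ± 0.18. The members at least 2-fold below Input in DLD-1 labels were SLC25A15, SLC25A23, SLC25A42 and SLC25A35 (-1.01).

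By substrate, the 4 ADP/ATP and phosphate carriers that passed the filter had median ratios of 0.61 and 0.89 in SW480 and DLD-1 labels. For 12 other nucleotide and cofactor carriers they were 0.48 and 0.32, for 9 amino acid and glutathione carriers 0.60 and 0.10, and for 3 carboxylate and acylcarnitine carriers 0.37 and 0.31. The 5 metal and uncoupling-related carriers gave -0.20 and 0.24, and 3 members of unassigned substrate 1.47 and -0.63. With the other label's Input, in the same order of groups, the medians were 0.36 and 0.83, 0.46 and 0.22, -0.03 and 0.29, 0.19 and 0.43, 0.08 and 0.54, and 0.47 and 0.36, so the first value of the amino acid and of the metal group and the second of the unassigned group changed sign. No group kept all of its members on 1 side of Input in both lines. The remaining members were within 2-fold of Input in both lines by label, among them SLC25A1 (-0.43 and 0.31), the oxoglutarate/malate carrier SLC25A11 (0.37 and 0.48), the aspartate/glutamate carriers SLC25A12 (-0.02 and 0.03) and SLC25A13 (0.92 and -0.23), and the mitoferrins SLC25A37 (-0.26 and 0.24) and SLC25A28 (-0.20 and 0.88). The pyrimidine nucleotide carriers SLC25A33 (0.62 and 0.73) and SLC25A36 (0.16 and 0.62) and the NAD carrier SLC25A51 (0.49 and 0.69) were above Input in both lines. SLC25A16 (0.67 and -0.50) and the S-adenosylmethionine carrier SLC25A26 (0.72 and -0.17) lay on opposite sides, as did the glutamate carrier SLC25A22 (-0.29 and 0.44) and the glycine carrier SLC25A38 (-0.55 and 0.10). SLC25A29, a basic amino acid carrier (0.18 and 0.30), and SLC25A44, a branched-chain amino acid carrier (0.60 and 0.02), were near Input in DLD-1 labels.

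ac4C peaks were listed on many of the same transcripts. In the acRIP-seq peak lists, 22 members had a peak in SW480 and 23 had one in DLD-1, while the list called on pooled libraries had 25. Both lines held a peak for 20 members, and 17 had peaks that overlapped by at least 1 base on the same strand. Among the 36 members that passed the Input filter the counts were 21, 22, 24 and 16, or 58.3%, 61.1%, 66.7% and 44.4%, against 51.1%, 56.8%, 63.6% and 32.2% of protein-coding genes that passed it. Peaks in SW480 alone were listed for SLC25A4 and SLC25A51, and in DLD-1 alone for SLC25A12, SLC25A29 and SLC25A40. The only SW480 peaks of SLC25A32, SLC25A46 and SLC25A51 did not reach an FDR below 0.05, at which the counts were 19 for SW480, 23 for DLD-1, 24 for the pooled list and 17 for shared peaks. No share of protein-coding genes at that threshold is given here.

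Peaks followed abundance. All 10 of the most abundant members (mean Input of 21.7 FPKM or more) had a peak in each line, against 11 and 12 of the 26 others that passed the filter. Over all protein-coding genes that passed it, 51.1% and 56.8% had a peak. Their share at like Input levels is not given here, so this is not shown to be particular to the family. The median Input was 21.8 FPKM for members with a peak in SW480 and 3.55 for those without, and 16.5 against 5.71 in DLD-1. Among the 12 members that passed the filter and had no peak in any list, SLC25A15 was the most abundant (mean Input 14.5 FPKM). Depth of the acRIP libraries is unknown, so a missing peak at a low level does not show a missing mark. A very low Input did not preclude a listed peak either. The SW480 list held 6 peaks on the fibroblast marker COL1A1 (Input 0.244 FPKM), 1 on COL1A2 (0.0114) and 1 on DCN (0.0765). The DLD-1 list held none on these genes and 1 on the leukocyte marker CD68 (0.0789).

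RIP and peak status did not move together in the same way in both lines when each RIP library was set against the peak list of its own label. With RIP labelled SW480, the median log2 ratio was 0.37 for 21 members with a peak and 0.72 for 15 without. With RIP labelled DLD-1, it was 0.40 for 22 with a peak and -0.21 for 14 without. Over the other label's Input the medians were 0.38 and 0.09, and 0.37 and 0.39. Only the Input was changed there, and RIP was not set against the peak list of the other label. These are descriptions over members that share libraries.

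The strongest peaks lay on 5 members whose fold of acRIP over Input reached 100 in at least 1 line. Of the 36 that passed the Input filter these were 4 (11.1%), where 11.5% of protein-coding genes reached that fold, and in both lines 1 (2.78%, background 2.92%). SLC25A28, mitoferrin 2, which brings iron into the matrix, had a 3′UTR peak of 422-fold in SW480 (chr10:99610552-99610908) and 88.9-fold in DLD-1 (chr10:99610611-99610938). SLC25A5 had a 3′UTR peak of 191-fold in SW480 (chrX:119470959-119471319), while in DLD-1 the listed peak of 378-fold took 5 blocks and 1380 bases of the transcript (chrX:119468520-119471319). SLC25A10, the dicarboxylate carrier, reached 251-fold and 152-fold, and it was the only member with peaks that did not pass the Input filter (Input 1.51 and 0.685 FPKM). SLC25A39 reached 314-fold in SW480 and 32.3-fold in DLD-1, and SLC25A37, mitoferrin 1, 137-fold and 26-fold. SLC25A5 and SLC25A10 were the 2 members at 100-fold or more in both lines.

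Members with the RIP patterns above had peaks of other sizes. SLC25A40, the member 2-fold above Input throughout, had 1 peak, of 10.2-fold, in DLD-1 and none in SW480. SLC25A24 had 3′UTR peaks in both lines, of 18.4-fold in SW480 and 79.4-fold in DLD-1 at the same place, and its DLD-1 list held 2 nearly identical peaks near the gene start. SLC25A23, below Input in RIP, also had a shared 3′UTR peak, of 34.9-fold and 12.6-fold. SLC25A6 peaked at 29.0-fold and 19.1-fold and SLC25A3 at 26.5-fold and 25.2-fold.

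**Figure D4:**
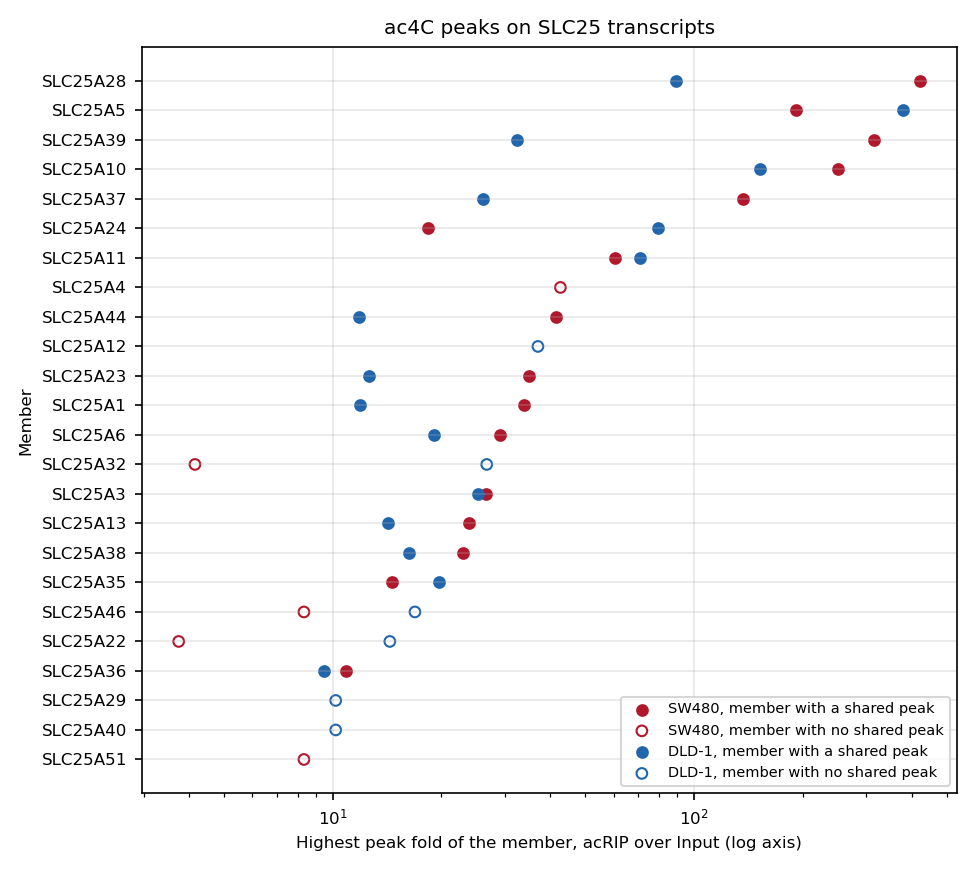
Highest fold of acRIP over Input among the peaks of each member, for 24 of the 25 members with a peak in SW480 (red) or DLD-1 (blue), on a log axis; filled points mark members with a peak that overlaps between lines. SLC25A28 (422 and 88.9) and SLC25A5 (191 and 378) stand at the top, and the open points of SLC25A4, SLC25A12, SLC25A29, SLC25A40 and SLC25A51 are members with a peak in 1 line.

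Member peaks were placed in the 3′UTR, in the CDS or in a class listed only as exon. Of 28 member peaks in SW480, 18 lay in the 3′UTR (64.3%, against 56.3% of 8924 protein-coding peaks) and 3 in the CDS (10.7% against 25.8%). The exon class held 7 there (25.0% against 16.6%). Of 51 in DLD-1, 22 lay in the 3′UTR (43.1% against 43.2%), 19 in the CDS (37.3% against 40.02%) and 10 in the exon class (19.6% against 15.0%). The median fold was 25.2 in SW480 and 14.2 in DLD-1, against 19.8 and 14.7. None of the member peaks was placed in the 5′UTR. Sites of the 12-base pattern with 4 evenly spaced Cs that the lists annotate were in 18 of the 28 SW480 peaks (64.3%, against 56.2%) and in 30 of the 51 DLD-1 peaks (58.8% against 54.8%).

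A site of this kind was read from the reference and is shown as the pattern itself. Sites in longer stretches and on part of the chromosomes were left out, so others may be readable. The site shown lies in a 3′UTR peak of SLC25A35, a member without an assigned substrate. That peak was called at 19.7-fold in DLD-1 and not in SW480. The bases are chr17:8288692-8288719 (GRCh38, RefSeq), 5′ to 3′ on the minus strand, and capitals mark the 12 bases with 4 evenly spaced Cs.
SLC25A35: ctccctgggtttcgCAGCTGCCACCGcc
SLC25A35 itself was at 3.78 and 2.82 FPKM in RIP and 2.92 and 6.68 in Input, and a second 3′UTR peak of the gene was shared between the lines.

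Carriers and partners outside the SLC25A symbols were measured alongside. UCP2, an uncoupling-protein member of the same family, gave 1.64 and -2.66 by label and -0.48 and -0.54 over the other label, the pattern seen in SLC25A15. MTCH1 and MTCH2, outer-membrane relatives, gave 0.01 and 0.56, and 1.18 and -0.02, whereas UCP1 and UCP3 did not pass the Input filter. Of 7 genes that bring carriers into the inner membrane, 2 were at least 2-fold above Input in SW480 labels (background 17.4%). In DLD-1 labels 3 were (16.7%), and none was 2-fold below by either label (9.17% and 12.8%). The chaperone TIMM9 was the highest, at 20.9 and 21.2 FPKM in RIP and 1.79 and 3.72 in Input (ratios 2.97 and 2.23), and AGK, a subunit of the carrier translocase, gave 1.66 and 1.14. Over the other label TIMM9 gave 2.22 and 2.99 and AGK 1.29 and 1.51. With RIP labelled DLD-1, TOMM70 went from 1.36 to 0.69 over the other label and TIMM29 from 0.06 to 1.15. Of 9 pyruvate carriers, sideroflexins and porins that passed the filter, 3 and 2 were 2-fold above (background 17.4% and 16.7%), with the pyruvate carrier MPC2 at 2.54 and 2.63. Over the other label MPC2 gave 2.78 and 2.39, while MPC1 went from 1.39 and -0.82 to 0.05 and 0.52. With RIP labelled SW480, SFXN4 gave 1.56 by label and 1.18 over the other label. With RIP labelled DLD-1, VDAC3 gave 1.01 and 0.81.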

How the data were processed

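RNA of SW480 and DLD-1 was sequenced as Input, NAT10 RIP and acRIP, 1 library per group. Per the labels, the authors trimmed reads with cutadapt 2.5 and aligned them with HISAT2 2.1.0 to GRCh38. The counter, its strand setting and the peak caller are not given in the sources used here. The authors deposited FPKM values for RIP and Input, a second table with Input columns read here as FPKM, and 3 peak lists with a p-value and a fold of acRIP over Input for each peak. The study's text names an IgG control, whereas the labels name Input. Columns with the authors' own ratios of RIP to Input were not used.

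Ratios were log2((RIP + 1) / (Input + 1)) and covered genes at 1 FPKM or more in both Inputs; the added 1 shrinks the ratios of low genes. A call was a difference of at least 2-fold, a log2 ratio of 1 or more in size. Whole reads were solved from the steps between FPKM columns as the smallest whole numbers that give them, so counting errors are upper limits. They cover counting error only, since PCR copies are not independent molecules. Inputs of the acRIP table were scaled to the protein-coding median of the RIP-table Input. Peaks of both lines counted as shared when their blocks had 1 base or more in common on 1 strand, and printed starts count from 1. Some FDR cells hold spreadsheet errors and were taken as below the threshold. Promoter sequences are RefSeq (GRCh38); 40 of 48 members matched. Of 227 listed pattern sites of the pooled list that lie in these windows, 219 matched the pattern at the offset used.

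The members and gene lists were chosen with earlier results of these data known. Named genes were the ADP/ATP carriers, the 5 most abundant members, those 2-fold from Input in both lines or with opposite calls, the highest and lowest same-sign ratios and shared peaks. The individual values of 1 member are not reported here, and the plots of levels and peaks leave it out. Others named were chosen after their values were seen. Alternatives were the pseudocount (0.1), the Input minimum (10 or none), centring, the other label, the acRIP-table Inputs, and stricter peak and overlap thresholds. Scripts were tested on simulated data and run with Python 3.11.15, numpy 2.4.6 and pandas 2.3.3.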

Additional observations from a re-analysis of the deposited data

Results flagged for a closer look

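In 12 members the RIP library labelled SW480 and that labelled DLD-1 lay on opposite sides of the Input of the same label, each by more than its 95% counting interval, a share of 33.3% where all protein-coding genes gave 36.2%. The difference between lines was not tested, as each line has 1 library. The log2 ratio in SW480 labels minus that in DLD-1 labels was 3.13 for the ornithine carrier SLC25A15, 2.103 for SLC25A43, 1.40 for SLC25A20, 1.29 for SLC25A35, 1.17 for SLC25A16, 1.15 for SLC25A13 and 0.62 for SLC25A4. It was -1.43 for SLC25A6, -0.74 for SLC25A1, -0.74 for SLC25A22, -0.51 for SLC25A37 and -0.50 for SLC25A25. Against the other label's Input, 4 of the 12 kept opposite signs, namely SLC25A4, SLC25A22, SLC25A25 and SLC25A37 (11.1% of the 36 members, background 11.9%).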

How the results depend on the processing

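With an Input of at least 10 FPKM in both lines, 11 members were left. Their median ratio changed sign in SW480 labels, from 0.48 over the 36 members to -0.26, and was 0.44 in DLD-1 labels. In SW480 labels 1 was 2-fold above and 0 below, in DLD-1 labels 2 were above and 1 below, and 5 had opposite signs. Fewer genes entered, and no protein-coding median or share at that minimum is given here. Without the Input minimum, 3 members were 2-fold below in SW480 labels and the DLD-1 median was 0.11. Centring gave an SW480 median of 0.30 and 3 members above in DLD-1 labels. Over the other label's Input the SW480 median was 0.23, with 6 members above and 2 below, 1 was below with RIP labelled DLD-1, and 7 had opposite signs. With the other label's Input from the acRIP table these were 0.17, 5, 2, 1 and 5, with 8 above in DLD-1. The protein-coding median beside that 0.17 was 0.15. For counts without the Input minimum, with centring or with the acRIP table, no protein-coding share is given here. Of the single-member ratios, 20 were followed through these settings. Among these, direction reversed for SLC25A5 in SW480 labels over the same label's acRIP-table Input (-0.060). It reversed for SLC25A15 in SW480 labels over the other label of either table (-0.52 and -0.48). Over the other label of the acRIP table it reversed for SLC25A20 (-0.24), SLC25A32 (-0.21) and SLC25A42 (0.20). Ratios outside the 20 changed sign too, such as SLC25A4 with RIP labelled SW480 (0.38 by label, -0.44 over the other label). With peak p-values under their list's median, 14 members had a peak in SW480 and 15 in DLD-1, and with folds at or above the median 15 in DLD-1. The protein-coding shares under these peak limits are not given here. The cause of these moves was not tested. No paired analysis was possible because the labels give no replicate numbers and the results come from no test.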
